A study of Mus musculus with 8 samples.

Results

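The genes described here are the linker and core histone genes of the mouse, as far as the deposited hippocampal RNA-seq table names them. They were taken by symbol, as genes of the H1f, H2ac, H2bc, H2az, H3c, H3f and H4c series, with earlier results of these data known. H2ax and symbols marked as pseudogenes with -ps were left out, and transcript counts were summed per gene. The rule found 49 of the 19558 genes in the table: 40 replication-dependent genes, 8 replacement genes (H1f0, H1f10, H2az1, H2az2, H3f3a, H3f3b, H3f3c and H3f4) and the germ cell linker histone gene H1f6. The reference lists H3f3c and H3f4 as pseudogenes, and neither was abundant enough to test. Polyadenylated hippocampal RNA of wild-type C57BL/6 KP mice at postnatal day 40 was sequenced after intranasal dosing. The KU55933 group (n = 4) received KU55933, a small-molecule blocker of the ATM kinase, at 7.5 mg/kg, and the vehicle group (n = 4) received the 4% DMSO in saline without it. The labels count 4 mice a group and name no allele, pool or batch, and every library is labelled hippocampus although the extraction text gives RNA amounts for hypothalamus and PFC. The series title concerns ATM deficiency, and the comparison asks what differs when ATM is blocked in an otherwise normal animal.

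Histones are the proteins around which nuclear DNA is wound: a core particle of H2A, H2B, H3 and H4, with H1 on the linker DNA between particles. Replication-dependent histone genes lie in clusters, mostly lack introns, and are transcribed chiefly in S phase, and their mRNAs usually end just past a conserved stem-loop rather than in a poly(A) tail. Replacement histone genes are polyadenylated, expressed outside S phase, and supply chromatin of cells that no longer divide, such as neurons. Some replication-dependent genes also make longer polyadenylated transcripts, and a library that selects poly(A) RNA reads those more than the short form.

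The 3′ ends of the transcripts that the reference lists are shown first, because the results below are ordered by them. A histone stem-loop of 16 bases, a 6-base stem around a 4-base loop, was searched on the sense strand of the GENCODE release 21 transcripts, and 32 of the 40 replication-dependent genes held one in their main transcript, against 0.578% of all 74539 transcripts searched. The stem-loop is in capitals with 5 bases on each side, and U is written T. These are the genes that fell, and H2ac6 and H2bc6, which did not pass the test.
H2ac18: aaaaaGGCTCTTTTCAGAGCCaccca
H2ac19: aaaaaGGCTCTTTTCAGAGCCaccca
H4c8: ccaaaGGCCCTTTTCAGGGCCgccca
H4c9: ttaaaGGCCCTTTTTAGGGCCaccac
H1f2: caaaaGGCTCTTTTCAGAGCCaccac
H2ac6: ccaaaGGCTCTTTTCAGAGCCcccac
H2bc6: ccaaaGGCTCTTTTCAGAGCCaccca
The H2ac18, H2ac19, H1f2, H2ac6 and H2bc6 stem-loops are one and the same, and that form was found in 17 genes of the H1, H2A, H2B and H3 families. The 2 H4 genes carry other stem bases. What differs between the transcripts is how far they run on. The H2ac18 and H2ac19 transcripts end 35 bases after the stem-loop and the H4c8 transcript 46 bases after it, whereas that of H4c9 runs on for 330 bases, that of H1f2 for 840, that of H2bc6 for 1861 and that of H2ac6 for 2010. H2bc4, whose fall below held with and without the offset, has no stem-loop in its annotated transcript of 1156 bases.

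Of the 40 replication-dependent genes, 33 lie on chromosome 13 and 7 on chromosome 3, and 36 have a single exon in the main transcript. H2A and H2B genes lie head to head in 4 pairs, with 175 to 250 bases between their starts. H2ac6 and H2bc4 on chromosome 13 start 250 bases apart and are transcribed away from each other, so 1 window holds the upstream DNA of both. It is shown because H2bc4 passed the test below and H2ac6 did not. The window is RefSeq's, chr13:23683910-23684209 of GRCm38.p6 on the minus strand (the strand of H2ac6), with TATAAA and CCAAT on either strand in capitals.
H2ac6 and H2bc4: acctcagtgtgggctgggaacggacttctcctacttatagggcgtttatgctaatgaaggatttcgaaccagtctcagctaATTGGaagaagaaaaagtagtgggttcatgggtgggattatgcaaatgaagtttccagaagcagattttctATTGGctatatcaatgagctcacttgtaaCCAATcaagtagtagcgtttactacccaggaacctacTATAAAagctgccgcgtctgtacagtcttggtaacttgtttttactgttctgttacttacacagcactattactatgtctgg
H2ac18 and H2ac19 lie on chromosome 3, on opposite strands, and their windows were identical at 249 of 260 aligned bases (95.8%). That of H2ac18, chr3:96245247-96245546 on the plus strand, is shown because both genes fell.
H2ac18: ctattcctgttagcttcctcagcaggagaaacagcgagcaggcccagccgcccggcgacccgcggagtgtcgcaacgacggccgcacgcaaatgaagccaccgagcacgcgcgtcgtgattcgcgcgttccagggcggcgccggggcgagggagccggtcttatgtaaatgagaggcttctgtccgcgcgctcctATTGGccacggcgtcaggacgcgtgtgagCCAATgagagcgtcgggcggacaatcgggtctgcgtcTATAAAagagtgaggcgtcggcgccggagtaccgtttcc
Promoter windows of 300 bases were matched by symbol for 44 of the 49 genes. TATAAA, or its reverse complement TTTATA, stood in 22 of 35 replication-dependent windows (62.9%) and in 2 of 8 replacement windows, against 13.6% of all 32851 windows. CCAAT, or ATTGG, stood in 28 of 35 (80.0%) and in 5 of 8, against 37.4% of all windows. The motifs can overlap and each was searched on its own, and a match is a run of letters, not a measured binding site.

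The libraries held 34190440 to 46630341 estimated counts, of which the 49 genes took 0.0607% to 0.0688% in vehicle and 0.0550% to 0.0610% in KU55933. Counts depended on the GC content of the transcript, and that dependence differed between the groups: taken as each library's deviation from the mean of all 8, the slope of log2 CPM (counts scaled to the library's TMM-adjusted total) per 10 points of GC was 0.213 ± 0.0625 (SD, n = 4) in vehicle and -0.213 ± 0.115 (SD, n = 4) in KU55933. These slopes sum to 0 by construction, so only the difference between groups is measured. Each change is therefore given as fitted and, where it matters, with an offset that takes out the trend that each library shows with GC content and length. On that relative scale vehicle 3 and 4 had the highest slopes (0.269 and 0.256) and KU55933 1 and 2 the lowest (-0.275 and -0.344). Choroid plexus markers summed to 1913 and 1794 CPM in KU55933 1 and 2 against 169 to 334 in the other libraries, and their part in the changes below was not tested. Among all 15481 genes tested, the median log2 change was 0.01.

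The replication-dependent histone genes that passed the test were all lower in KU55933. Of 18 that were abundant enough to test, 6 fell at an adjusted p under 0.05 (edgeR's quasi-likelihood test, Benjamini-Hochberg over all genes), 0 rose and 12 did not pass, with a median log2 change of -0.26. Across all genes tested 14.6% fell and 6.92% rose. The 6 that fell were H2bc4, H1f2, H4c9, H4c8, H2ac18 and H2ac19. With the GC and length offset 3 of the 18 fell, H2bc4, H4c8 and H4c9, while across all genes 1.3% fell and 0.691% rose. The median log2 change of the 18 was 0.0037. H4c8 and H2ac18 passed the abundance filter through the vehicle libraries, with 0 and 1 KU55933 libraries above it, so both had to be lower in KU55933 to be tested as they were. In 7 of the 18 the groups did not overlap, 6 of them lower in KU55933, while 26.7% of all genes did not overlap, 15.9% lower and 10.7% higher. A block on replicate number gave 7 that fell against 17.6% of all genes, and DESeq2 gave 5 against 17.4%.

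H2bc4 encodes a core histone H2B and gave the most counts of the replication-dependent genes. Its level was 27.1, 25.1, 30.4 and 35.6 CPM in vehicle 1 to 4 and 15.7, 12.03, 17.6 and 17.6 CPM in KU55933 1 to 4. Every KU55933 library lay below every vehicle library. The mean fell 1.87-fold, from 29.5 ± 4.60 to 15.8 ± 2.64 CPM (SD, n = 4 each; log2 change -0.91 ± 0.14 SE, edgeR adjusted p = 0.00199). The offset left it in place (-1.02 ± 0.14, edgeR adjusted p = 0.00812), and it was called in 8 of 8 fits that each left out a library, with or without the offset. At 45.9% GC it lies where other genes tended upward: of 1569 tested genes within 1 point of its GC content, 10.1% rose, 0.574% fell, and the median log2 change was 0.16.

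H2ac6, the H2A gene across the shared promoter from H2bc4, did not pass the test. It stood at 1.316, 1.34, 1.36 and 1.51 CPM in vehicle and 1.58, 1.66, 1.30 and 2.06 in KU55933 (log2 change 0.26 ± 0.19 SE, edgeR adjusted p = 0.346), and the groups overlapped. Both genes have a GC content of 45.9%, and a ratio of counts within a library does not depend on scaling. Their transcripts differ in length, at 1156 bases for H2bc4 and 2482 for H2ac6. H2bc4 counts were 20.6, 18.8, 22.3 and 23.6 times those of H2ac6 in vehicle 1 to 4 and 9.96, 7.24, 13.5 and 8.56 times in KU55933 1 to 4. The ratio was 2.17-fold lower in KU55933, at 9.82 ± 2.71 against 21.3 ± 2.08 (SD, n = 4), without overlap. H2ac6 rests on 49 to 73 counts a library, which limits the precision of the ratio.

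**Figure D1:**
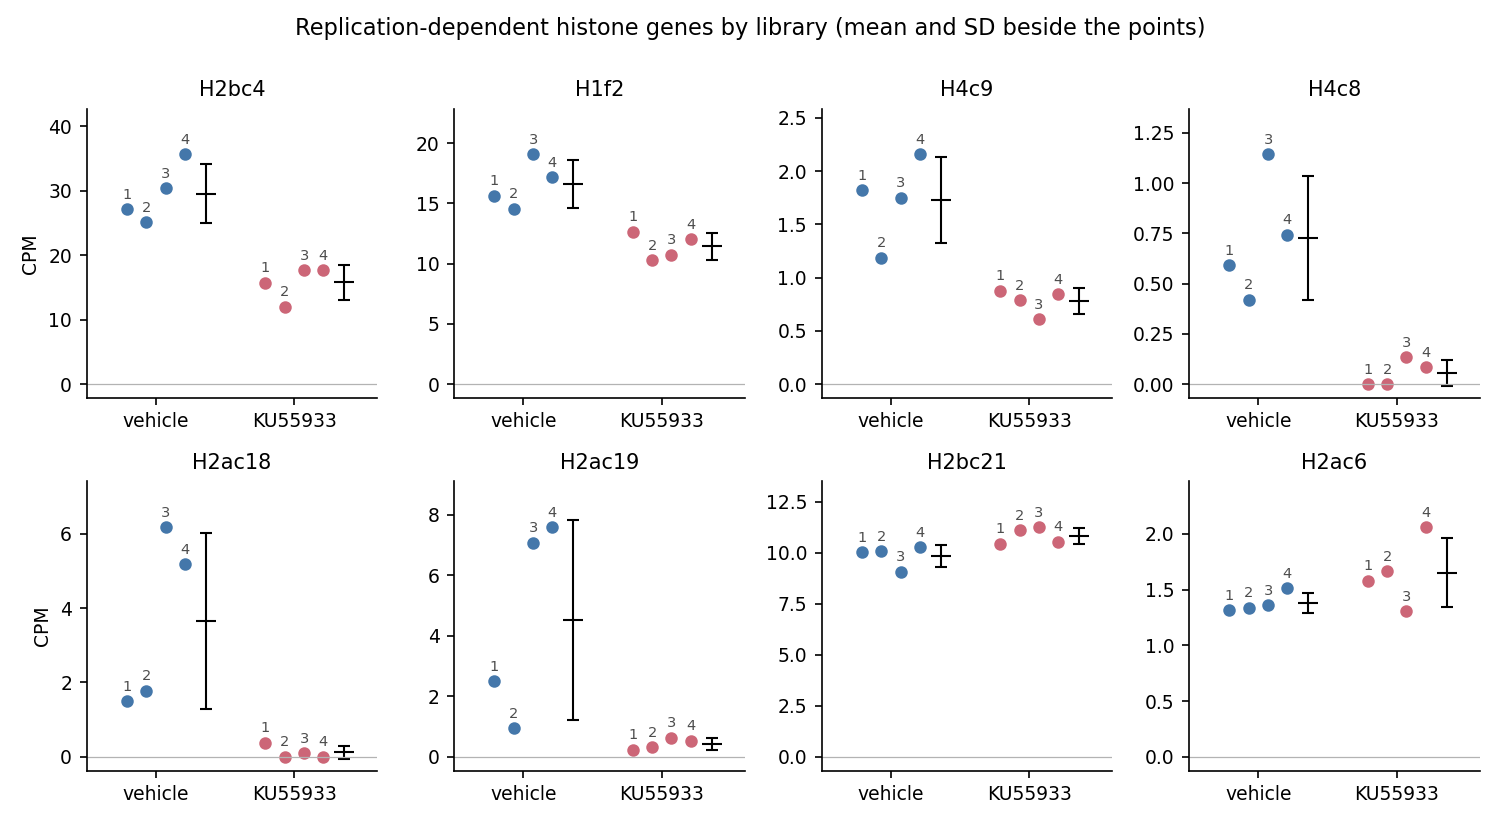
CPM of 8 replication-dependent histone genes in each vehicle and KU55933 library (points, numbered by replicate, linear axes from 0), with the mean and SD beside them. The 6 genes that fell show no overlap between groups, H2bc21 is shifted slightly up and H2ac6 overlaps.

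H2ac18 and H2ac19, both for a core H2A, also fell. Their annotated transcripts were identical over 528 of 528 shared bases, so the counts cannot be split between them and the sum is the safer value. The sum was 3.99, 2.72, 13.2 and 12.8 CPM in vehicle 1 to 4 and 0.614, 0.310, 0.745 and 0.536 CPM in KU55933 1 to 4. Vehicle 3 and 4 stood well above vehicle 1 and 2, and all KU55933 libraries lay below the lowest vehicle library. Fitted as 1 gene the pair fell by 3.88 ± 0.60 on the log2 scale (edgeR adjusted p = 0.00305), and by 2.67 ± 0.45 with the offset (edgeR adjusted p = 0.0273). Taken apart, H2ac18 changed by -4.89 ± 0.87 (edgeR adjusted p = 0.00593) and H2ac19 by -3.38 ± 0.68 (0.0104). With the offset neither passed alone (edgeR adjusted p = 0.0533 and 0.0988). Without vehicle 3 and 4, H2ac18 changed by -3.74 (edgeR adjusted p = 0.0684) and H2ac19 by -1.99 (0.0473). The reference also lists Gm20634 on the H2ac18 strand, with exons that overlap H2ac18 by 529 bases and H3c14 by 1825. Gm20634 was not among the genes counted, so some H2ac18 and H3c14 reads could belong to it. On the opposite strand, Gm20633 overlaps H2ac18 by 586 bases and Gm20632 overlaps H2ac19 by 528, and neither was counted.

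The H4 genes that fell were rarer. H4c8 was at 0.592, 0.420, 1.14 and 0.744 CPM in vehicle and 0, 0, 0.133 and 0.0846 in KU55933, from 27, 17, 47 and 30 counts against 0, 0, 5 and 3. Its log2 change was -3.62 ± 0.66 (edgeR adjusted p = 0.00413), and -3.25 with the offset (edgeR adjusted p = 0.0334), a call that held in 3 of 8 fits with the offset that left out a library (adjusted p up to 0.106) and was lost without vehicle 3 or 4 or KU55933 1, 2 or 4. H4c9 was at 1.82, 1.19, 1.75 and 2.16 CPM in vehicle and 0.878, 0.789, 0.612 and 0.846 in KU55933. Both genes were lower in every KU55933 library than in any vehicle library. H4c9 changed by -1.14 ± 0.23 (edgeR adjusted p = 0.0073), and by -1.07 with the offset (edgeR adjusted p = 0.0447), a call that held in 2 of those 8 fits, without vehicle 1 and without vehicle 2 (adjusted p up to 0.139 in the others). Both lost the call without vehicle 3 and 4 (edgeR adjusted p = 0.0582 for H4c8 and 0.127 for H4c9), and H4c9 also without KU55933 1 and 2 (0.0504).

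H1f2, a somatic linker histone with the most counts among the replication-dependent linker genes, was at 15.6, 14.5, 19.1 and 17.2 CPM in vehicle and 12.6, 10.3, 10.8 and 12.04 in KU55933. The groups did not overlap, and the mean fell from 16.6 ± 1.96 to 11.4 ± 1.10 CPM (SD, n = 4; log2 change -0.54 ± 0.11 SE, edgeR adjusted p = 0.00776). At its GC content of 55.1% the median tested gene changed by -0.21, and with the offset H1f2 no longer passed (-0.30 ± 0.10, edgeR adjusted p = 0.180). Without vehicle 3 and 4 its change was -0.40 (edgeR adjusted p = 0.154). The other linker genes tested, H1f4 (0.35) and H1f3 (0.31 on the log2 scale), did not pass.

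The remaining genes that were tested did not pass. H2bc21, for an H2B, was at 9.85 ± 0.536 CPM in vehicle and 10.8 ± 0.401 in KU55933 (SD, n = 4), the 1 gene whose groups did not overlap with KU55933 the higher, by 0.14 on the log2 scale (edgeR adjusted p = 0.287). H2bc6 was at 7.47 ± 1.70 and 9.16 ± 0.982 CPM (log2 change 0.29), and H3c14 at 6.13 ± 1.46 and 6.90 ± 0.387 CPM (0.17). H3c15, which encodes H3, was at 2.69 ± 0.758 and 1.80 ± 0.317 CPM (-0.58, edgeR adjusted p = 0.0937). Without vehicle 1, H2bc6 and H1f4 passed as higher (log2 change 0.47 and 0.60, edgeR adjusted p = 0.0171 and 0.0400), and without vehicle 2, H3c15 passed as lower (-0.75, 0.0379). H1f4 and H2bc6 overlap by 450 exonic bases on the same strand, so some of their reads could belong to either. H4c14 changed by 0.02 and H3c4 by 0.05, while H2bc8 was at 0.566 ± 0.260 and 0.255 ± 0.165 CPM (-1.12, edgeR adjusted p = 0.107). H2bc23 and H2bc24, 84.6% identical without gaps, varied widely between libraries of a group and had standard errors near 1 log2 unit.

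A further 22 replication-dependent genes were too rare to test, with at most 67 counts over all 8 libraries. Together they gave 1.82, 0.915, 1.68 and 1.59 CPM in vehicle and 0.410, 0.733, 1.01 and 1.07 in KU55933. These sums overlapped. H1f6, the germ cell linker gene, had 3 counts in all, and the replacement genes H3f3c and H3f4 had at most 7.

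The genes were also summed by where the annotated transcript ends. Near-end genes are those whose transcript stops under 200 bases after the stem-loop, extended genes those that run on further, and the rest have no stem-loop in the main transcript. The 16 near-end genes summed to 5.26, 3.71, 15.3 and 14.9 CPM in vehicle and 0.819, 0.705, 1.54 and 0.874 in KU55933, 9.95-fold lower without overlap. Most of this was H2ac18 and H2ac19. Without them the sum was 1.27, 0.989, 2.09 and 2.16 CPM against 0.205, 0.395, 0.798 and 0.338 CPM, 3.75-fold lower and again without overlap. It rested on 58, 40, 86 and 87 counts in vehicle and 7, 14, 30 and 12 in KU55933. H4c8 and H2bc8 gave most of it, with vehicle means of 0.725 and 0.566 CPM. The 16 extended genes summed to 41.0 ± 5.23 and 37.0 ± 2.22 CPM (SD, n = 4), 1.11-fold lower with overlap. The 8 genes without a stem-loop went from 40.6 ± 4.81 to 27.6 ± 2.80 CPM, and to 11.8 ± 0.810 from 11.02 ± 0.705 CPM once H2bc4 was left out. Of the genes tested, 3 of 4 near-end, 2 of 10 extended and 1 of 4 without a stem-loop fell, where 14.6% of all genes fell, and with the offset 1 of each kind fell, where 1.3% did. Of the near-end calls, H2ac18 and H4c8 are those that passed the filter through vehicle. Near-end transcripts were also richer in GC, with a median of 59.5% against 49.2% in extended ones. They were shorter as well, at 397 to 704 bases against 727 to 7425. The end, the base composition and the length therefore cannot be told apart here.

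**Figure D2:**
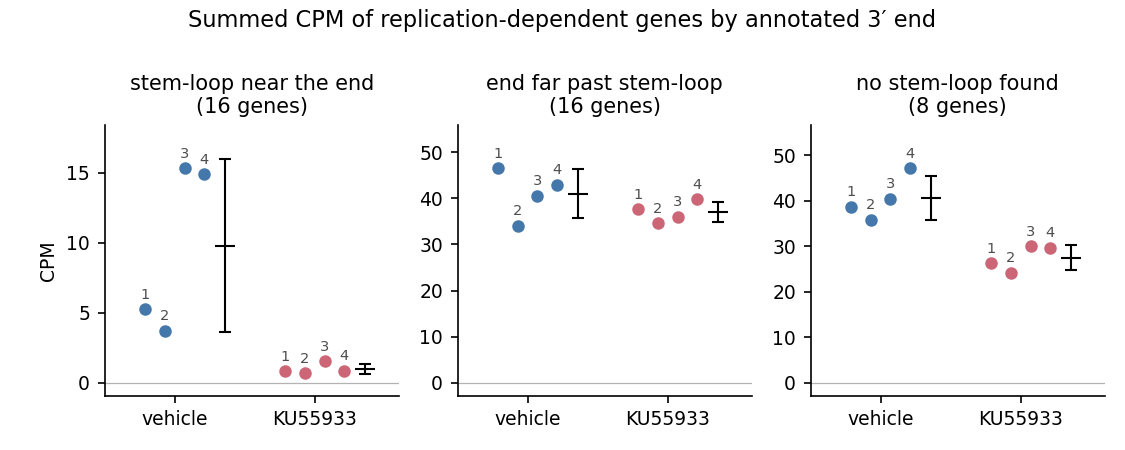
Summed CPM per library of replication-dependent genes by annotated 3′ end (points numbered by replicate, mean and SD beside them, one linear axis per panel). Near-end genes range from 3.71 to 15.3 CPM in vehicle and from 0.705 to 1.54 in KU55933, extended genes overlap, and genes without a stem-loop are lower in KU55933 through H2bc4.

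By family, the H2A genes summed to 9.65 ± 5.73 CPM in vehicle and 2.20 ± 0.277 in KU55933 (SD, n = 4), or to 1.47 ± 0.155 and 1.65 ± 0.312 CPM without H2ac18 and H2ac19. The H2B genes, led by H2bc4, summed to 48.7 ± 4.87 and 37.2 ± 3.65 CPM. Linker H1 genes summed to 18.3 ± 1.96 and 13.6 ± 1.01 CPM, and H4 genes to 5.12 ± 1.16 and 3.09 ± 0.821 CPM, with overlap in H4. The H3 genes were at 9.64 ± 2.14 and 9.50 ± 0.474 CPM. All 40 genes together gave 91.4 ± 13.2 CPM in vehicle and 65.6 ± 4.61 in KU55933, without overlap. In bulk tissue, fewer cells of a type and less RNA per cell cannot be told apart. Markers of cycling cells summed to 79.2 to 92.3 CPM in vehicle and 81.2 to 87.1 in KU55933. Of the 16, 1 fell (Mcm2, a replication licensing factor, log2 change -0.55) and 0 rose, where 14.6% of all genes fell and 6.92% rose. With the offset 0 of the 16 passed, and Mcm2 stood at -0.32 (edgeR adjusted p = 0.245).

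Replacement histones gave far more counts, 566 ± 26.95 CPM in vehicle and 511 ± 31.8 in KU55933 (SD, n = 4) with overlap. Of the 6 tested, 2 fell, H1f10 and H2az1, 0 rose and 4 did not pass, with a median log2 change of -0.16, where 14.6% of all genes fell and 6.92% rose. With the offset 2 of the 6 fell, H2az1 and H3f3b, where 1.3% of all genes did. Scaled by length, the order in vehicle was H3f3a at 375 ± 12.9 TPM, the count scaled by length and depth, H3f3b at 235 ± 17.5, H2az1 at 213 ± 17.2, H1f0 at 110 ± 5.23, H2az2 at 39.2 ± 1.79 and H1f10 at 25.2 ± 10.3. Of neighbours in that order, H3f3b and H2az1 differed by less than their SDs added. H2bc4, at 61.3 ± 9.68 TPM, lay above H2az2 in vehicle and below it in KU55933 (33.2 ± 4.77 against 44.2 ± 5.31).

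H1f10, a linker histone made outside S phase, was at 7.94, 8.88, 15.6 and 18.6 CPM in vehicle and 2.11, 1.58, 3.33 and 2.51 in KU55933. The groups did not overlap, vehicle 3 and 4 were again the highest, and the mean fell 5.36-fold (log2 change -2.42 ± 0.33 SE, edgeR adjusted p = 0.00158). With the offset nothing of this was left (-0.07 ± 0.18, edgeR adjusted p = 0.889). When transcripts were fitted one by one with the offset, its only transcript stood at 0.64 ± 0.23 (edgeR adjusted p = 0.237). Its transcript is 71.3% GC, and only 2 tested genes, H1f10 included, lie within 1 point of that, so the trend at its position rests on very few genes.

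H2az1, the main gene for the variant H2A.Z that marks gene starts, was at 83.8, 93.5, 92.9 and 101.7 CPM in vehicle and 81.2, 69.5, 70.7 and 77.7 in KU55933. The groups did not overlap, though vehicle 1 and KU55933 1 lay close together. The log2 change was -0.31 ± 0.08 (edgeR adjusted p = 0.0225) and -0.37 ± 0.07 with the offset (edgeR adjusted p = 0.0220). Without the offset it was called in 3 of 8 fits that left out a library, and lost without vehicle 2, 3 or 4 or KU55933 2 or 3 (edgeR adjusted p up to 0.0680). With the offset, H2az1 was likewise called in 3 of 8 such fits (edgeR adjusted p up to 0.0883). Its partner H2az2, for a nearly identical protein, was at 21.2 ± 1.11 and 22.2 ± 2.65 CPM (log2 change 0.06, edgeR adjusted p = 0.673).

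H3f3a and H3f3b encode the same replacement H3 from different genes. H3f3a was at 160 ± 6.43 CPM in vehicle and 162 ± 7.85 in KU55933 (SD, n = 4; log2 change 0.02, edgeR adjusted p = 0.838). H3f3b was at 186 ± 14.6 and 165 ± 10.8 CPM (-0.17 ± 0.08, edgeR adjusted p = 0.136), and its change passed with the offset (-0.35 ± 0.07, edgeR adjusted p = 0.0366). That call held in 2 of 8 fits with the offset that left out a library, without vehicle 1 and without KU55933 1. H1f0, the linker histone that accumulates in cells that have stopped dividing, was at 94.1 ± 4.14 and 84.8 ± 6.78 CPM (-0.15 ± 0.08, edgeR adjusted p = 0.168).

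**Figure D3:**
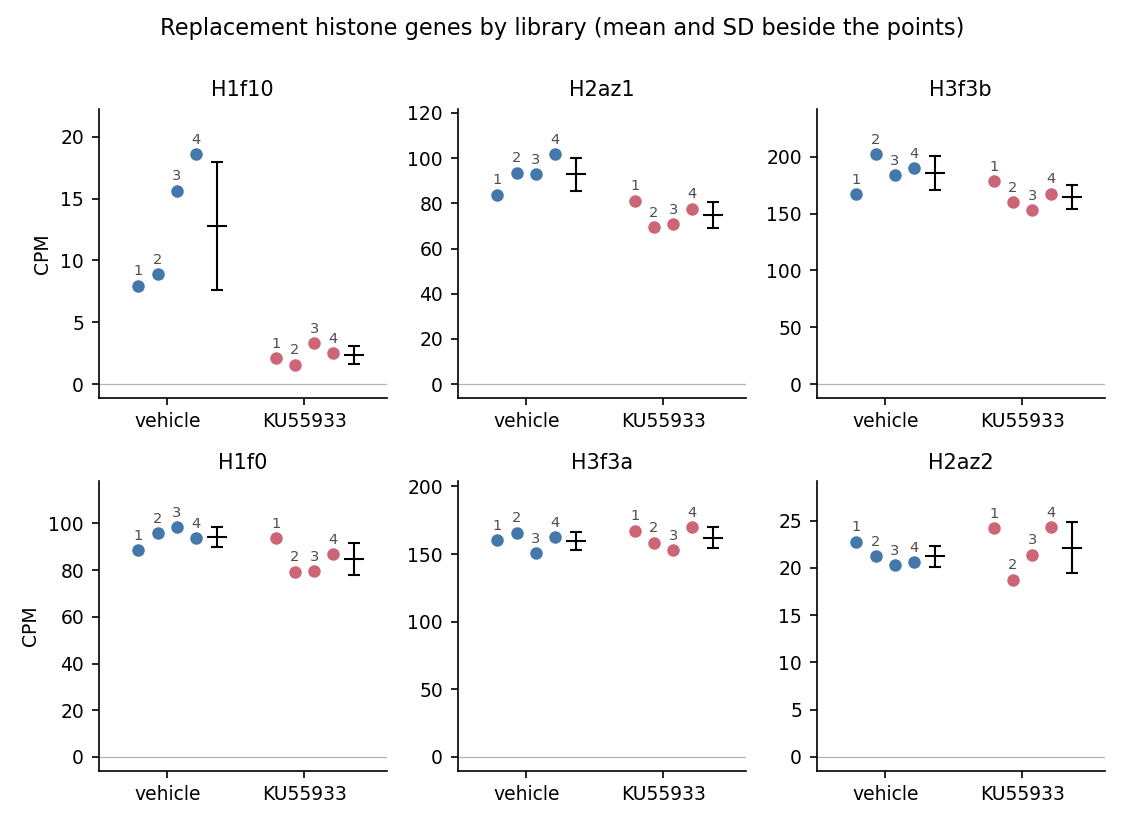
CPM of the 6 tested replacement histone genes in each library (points numbered by replicate, linear axes from 0), with the mean and SD beside them. H1f10 and H2az1 show no overlap between vehicle and KU55933, and the other 4 overlap.

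The 49 genes had 67 transcripts in the table, of which 35 were tested one by one. In that test 8 fell and 0 rose, where 5.7% of all 45343 transcripts fell and 1.06% rose. With the offset 1 fell, where 1.01% of all fell and 1.05% rose, and it was that of H2bc4 (log2 change -0.97 ± 0.19, edgeR adjusted p = 0.0414). The 8 were the single transcripts of H2bc4, H1f2, H1f10, H2ac18, H2ac19, H4c8 and H4c9, and a rare processed transcript of H3f3b without a coding sequence (66.1% GC; 0.882 ± 0.565 against 0.0340 ± 0.0258 CPM; log2 change -4.55, edgeR adjusted p = 0.0126, or 0.0858 with the offset). The main coding transcript of H3f3b held 94.4% ± 1.25 of the gene's counts in vehicle and 97.2% ± 1.02 in KU55933 (SD, n = 4). For H2az1 the main transcript held 93.1% ± 2.14 and 95.5% ± 0.878, and it changed by -0.30 ± 0.08 (edgeR adjusted p = 0.0553). The most abundant intron-retaining transcript of H2az1 changed by -0.87 ± 0.28 and that of H3f3a by -1.43 ± 0.36 (edgeR adjusted p = 0.122 and 0.0521). The 2 nearly identical H3c14 transcripts took all of the gene's counts in turn, 1 in vehicle 1 to 4 and KU55933 2 and 4, the other in KU55933 1 and 3, so only their sum was read.

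Across the 24 tested histone genes the log2 change went down with GC content (Spearman's rho -0.69, Pearson's r -0.76, a description over genes that share the same 8 libraries), as it did across 15470 genes (rho -0.71). With the offset rho was -0.38 over the 24. Among 19 named histone genes, H2ac18 had the smallest share of tested genes within 1 GC point lying below it, 0% of 92. H4c8 followed with 0.0809% of 1236, then H4c9 with 0.303% of 1651, H2bc4 with 0.319% of 1569 and H2ac19 with 1.515% of 66. H2ac18 and H4c8 passed the filter through vehicle, so they had to be lower to be tested and their rank adds no support. H2ac18 also lies in the GC window of H2ac19 and below it. As the counts of those genes cannot be split, the H2ac19 rank is not independent of H2ac18. H3c15 lay above the median of its GC neighbours (-0.58 against -0.70).

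**Figure D4:**
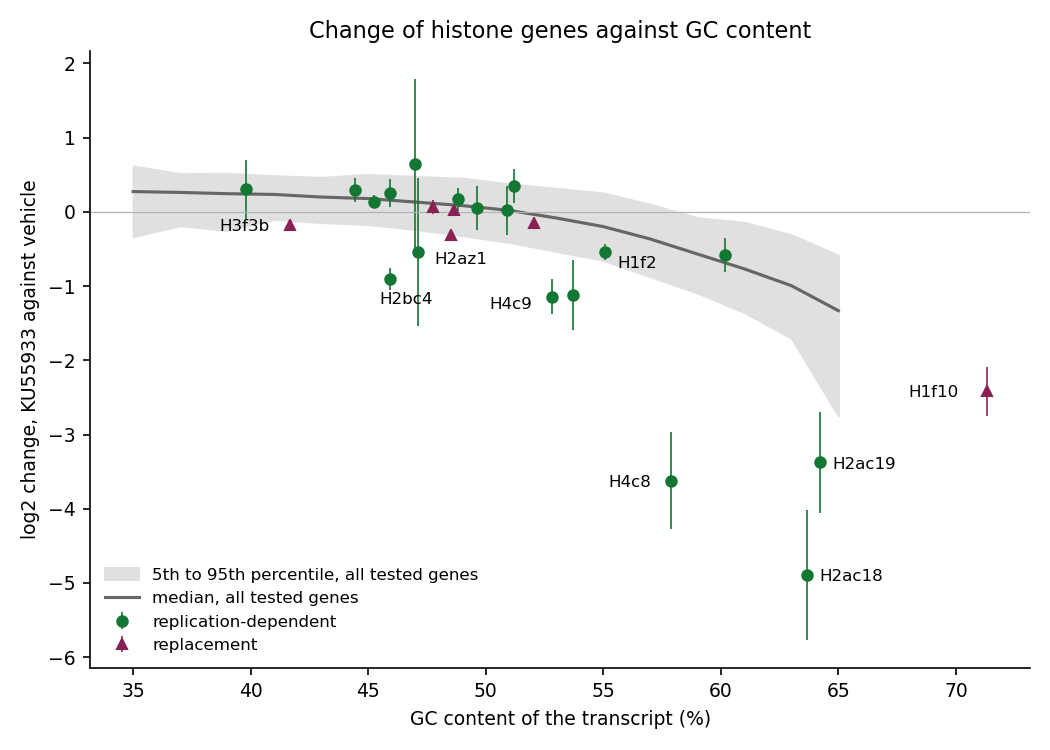
Log2 change of each tested histone gene (circles replication-dependent, triangles replacement, bars SE) against the GC content of its transcript, over the median (line) and the 5th to 95th percentile (grey) of all tested genes in 2-point bins of at least 20 genes. H2bc4 at 45.9% GC and H4c9, H4c8, H2ac19 and H2ac18 lie below the grey band, as do H2bc8, H2bc23 and H3f3b, which did not pass, H2az1 sits at its lower edge, and H1f10 at 71.3% lies past its end.

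**Figure D5:**
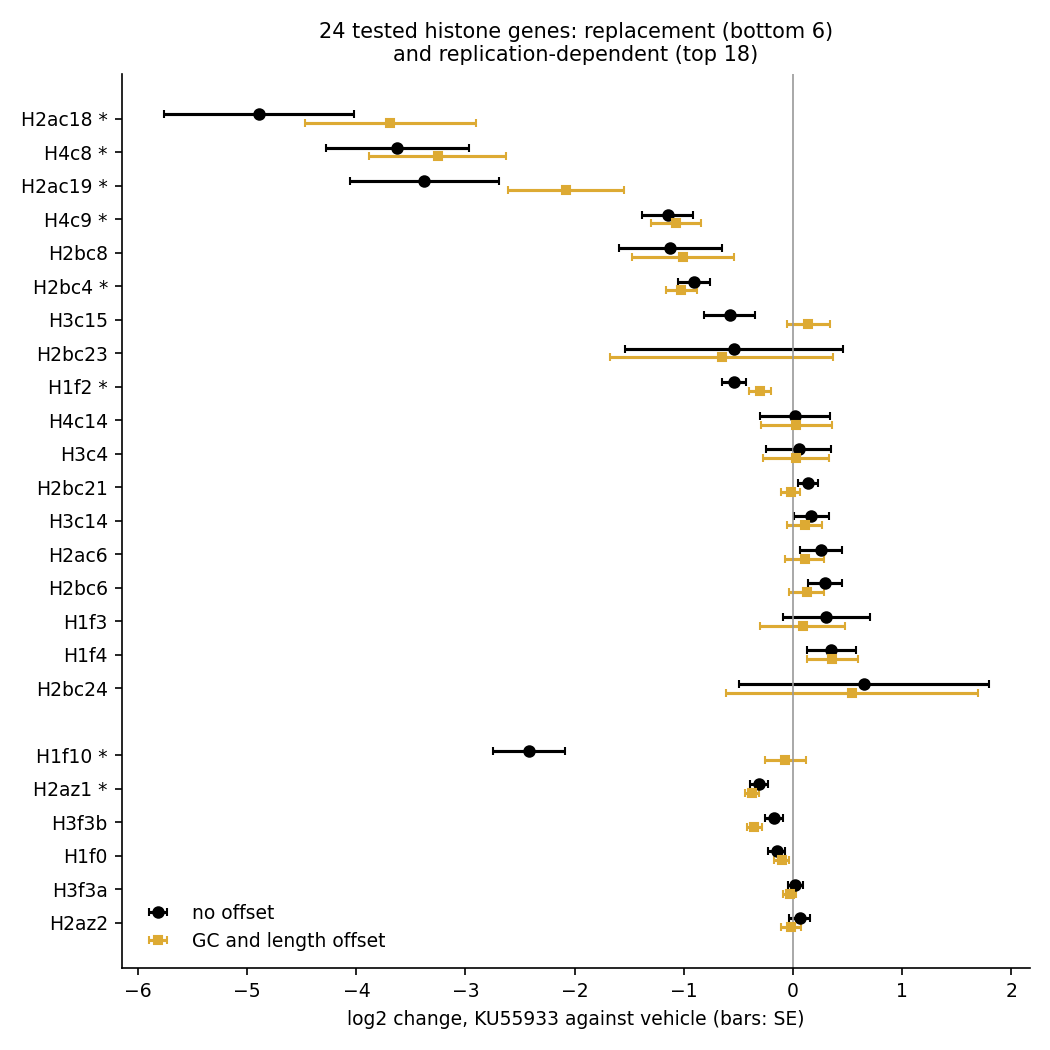
Log2 change of the 24 tested histone genes as fitted (black circles) and with the GC and length offset (yellow squares), bars SE, with * for an edgeR adjusted p under 0.05 as fitted. H1f10 moves from -2.42 to -0.07 with the offset while H2bc4 stays at -1.02.

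Genes that handle histone mRNA and protein were counted over all listed genes that were tested. Of 21 tested genes for histone mRNA transcription and 3′ end processing, 4 fell, 3 rose and 14 did not pass, where 14.6% of all genes fell and 6.92% rose, and with the offset 0 passed. Those that fell were Upf1, the helicase that starts histone mRNA decay (log2 change -0.48, edgeR adjusted p = 0.00451), Mblac1 (-0.87), Wdr33 (-0.26) and Cpsf1 (-0.41). Those that rose were Casp8ap2 (FLASH), a core factor of histone locus bodies (0.36), the histone mRNA exonuclease Eri1 (0.32) and the cap-binding Ncbp2 (0.25). Slbp, whose protein binds the stem-loop, was at 17.97 ± 1.08 and 19.4 ± 1.54 CPM (0.11, edgeR adjusted p = 0.378), and Npat, the S-phase activator of histone genes, changed by 0.19 (0.177).

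Of 27 tested histone chaperone and exchange genes, 7 fell, 1 rose and 19 did not pass, where 14.6% of all genes fell and 6.92% rose, and with the offset 0 passed. The falls included Znhit1 (-0.59), Ruvbl2 (-0.70), Vps72 (-0.53) and the histone importin Ipo4 (-0.42). Nap1l1, an H2A and H2B chaperone, rose (0.30, edgeR adjusted p = 0.0215). Among histone variants outside the chosen genes, H2ax, the H2A that ATM phosphorylates at DNA breaks, fell from 16.5 ± 6.50 to 9.02 ± 0.661 CPM (-0.87 ± 0.25, edgeR adjusted p = 0.0391) and stood at 0.18 with the offset (edgeR adjusted p = 0.662). Vehicle 3 and 4 held most of that difference, at 22.2 and 21.9 CPM. Vehicle 1 and 2, at 10.9 and 10.8 CPM, lay close to the KU55933 libraries at 8.57 to 10.01. H2aj fell by 0.83 ± 0.19 (edgeR adjusted p = 0.0146, or 0.126 with the offset). Macroh2a1 and Macroh2a2 did not pass (-0.08 and -0.11). The mRNA of Atm itself, whose protein KU55933 blocks, was at 26.0 ± 0.531 and 28.5 ± 3.51 CPM (0.13, edgeR adjusted p = 0.320), and it is no check of the treatment.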

How the data were processed

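Hippocampal mRNA of 4 vehicle and 4 KU55933 mice was sequenced with a stranded kit after poly(A) selection (TruSeq), and groups follow the labels. The deposited table held whole-number estimated counts (expected counts) per transcript, made by the authors with Salmon 1.4.0 against GRCm39, with FastQC 0.11.9 and DESeq2 1.32.0 also named, per the submitters' processing notes. How the estimated counts were rounded or filtered is not given in the sources used here. Counts of 74764 transcripts were summed to 19558 genes. Genes passing edgeR's filterByExpr (15481, minimum count 10, about 0.256 CPM) were scaled by TMM and compared by the robust quasi-likelihood F test of edgeR, two-sided, with Benjamini-Hochberg adjustment over all genes and a threshold of 0.05 (edgeR 4.0.16, limma 3.58.1, R 4.3.3). The same was done per transcript. Tests were tried on simulated data with known changes.

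GC content, lengths, stem-loops and exon overlaps came from GENCODE release 21 (GRCm38), which matched 99.7% of transcripts. The offset removed each library's spline on GC (6 degrees of freedom) and length (5). TPM used the same lengths. Promoters were RefSeq's for GRCm38.p6. H2bc4, H2bc21, H2bc24, H3c7 and H4c14 had no match. Alternatives were RLE scaling, no filter, DESeq2 1.42.0, a block on replicate number, the offset, and leaving out libraries singly or KU55933 1 and 2 together. Leaving out vehicle 3 and 4 together, and summing H2ac18 with H2ac19, were chosen after seeing the data. Libraries of a group differed by a chi-square of 14.7 to 61.6 per degree of freedom, so none was a duplicate.

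The members and the lists were chosen with earlier results of these data known. Named genes were tested replacement genes with a mean of at least 1 CPM, tested replication-dependent genes with at least 1 CPM or past the threshold, H2ax, H2aj, Macroh2a1, Macroh2a2, Atm, and up to 4 called genes of each pathway list by smallest p. Other genes named (H1f3, H2bc8, H2bc23, H2bc24, H3c4, Cpsf1, Eri1, Ncbp2, Slbp, Npat, Nap1l1, Mcm2) were chosen after their values were seen. Marker lists of oligodendrocytes, microglia, endothelium, erythroid cells, neuroblasts, and dentate granule, pyramidal and subcortical neurons were also counted. They held 6, 6, 6, 5, 6, 5, 6 and 5 tested genes in that order. Of these, 0, 0, 1, 1, 1, 1, 3 and 0 were lower and 0, 0, 1, 0, 0, 0, 1 and 2 higher, and 0 with the offset. Across all genes tested 14.6% fell and 6.92% rose. Figures used matplotlib 3.10.9, and tables NumPy 2.4.6 with pandas 2.3.3 in Python 3.11.15.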

Additional observations from a re-analysis of the deposited data

Results flagged for a closer look

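H2bc6 stood at 10.003 CPM in vehicle 1, apart from the other vehicle libraries at 6.34 to 6.77 CPM. Its gap to the nearest of them was 0.884 of the group's range, above Dixon's critical value for 4 samples. It was 1 of 38 groups of 4 screened, and chance alone marks about 1 group in 20. Without vehicle 1 the H2bc6 log2 change was 0.47 (edgeR adjusted p = 0.0171).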

How the results depend on the processing

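With the GC and length offset there were 201 genes lower and 107 higher in place of 2267 and 1071, 3 replication-dependent genes lower in place of 6, 458 transcripts lower in place of 2585, and 1 histone transcript lower in place of 8. Without KU55933 1 and 2 together there were 985 genes lower and 105 higher, 1 replacement gene lower, 598 transcripts lower and 89 higher, and 0 histone transcripts lower. Without vehicle 3 and 4 together there were 593 genes lower and 13 higher, 2 replication-dependent genes and 1 replacement gene lower, 103 transcripts lower and 112 higher, 0 histone transcripts lower, and an H2A family log2 ratio of -1.10 against -2.13. RLE scaling gave 1723 transcripts lower and 4 histone transcripts, and no filter 692 genes higher and 4 histone transcripts. DESeq2 called 1811 genes higher and 5 replication-dependent genes lower, giving no adjusted p for H4c8. A block on replicate number gave 1720 genes higher, 1517 transcripts and 4 histone transcripts lower, and 7 replication-dependent genes lower, H3c15 added; with the offset it gave 460 genes lower and 361 higher. Same-numbered libraries correlated at 0.294, 0.0840, 0.0393 and 0.202, 3 of 4 best with their own number. The labels name no batch or pairing, so the main fit did not pair the libraries by number. Whether the numbers mark something shared, such as a batch, was not tested. Leaving out 1 library gave 1446 to 2558 genes lower and 151 to 1790 higher, 6 to 7 replication-dependent genes lower and 0 to 2 higher, 1 to 2 replacement genes lower, 1209 to 2242 transcripts lower and 231 to 776 higher, and 2 to 7 histone transcripts lower. With the offset it gave 52 to 394 and 24 to 352 genes, 1 to 4 replication-dependent and 0 to 2 replacement genes lower, and H1f10 changed sign without vehicle 2 (0.0752), KU55933 1 (0.03) or KU55933 2 (0.01). The H1f10 log2 change ranged from -0.17 to 0.0752 in these fits and from -2.62 to -2.18 in those without the offset. The causes were not tested. Genes with fewer than about 10 counts a library, such as H4c8 in KU55933, are at the limit of this depth.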
